A study of Mus musculus with 10 samples.

Results

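The 10 genes described here encode the fibrillar collagens Col1a1, Col1a2 and Col3a1, the collagen-binding proteoglycans Dcn and Lum, the elastic fibre proteins Fbn1 and Eln, and 3 proteins used to mark lung fibroblasts, the growth factor receptor Pdgfra, the glypican Gpc3 and the transcription factor Tcf21. They were taken by name, with every probe annotated to them, which gave 21 of 46237 probes. Of the 10 genes, 9 were among the 16144 genes tested, because Tcf21 did not pass the detection filter. Expression was measured on 10 Illumina mouse beadchips, 1 per sample, with RNA from flow-sorted endothelial cells of the lung, which line its blood vessels. The donors were C57/Bl6 mice of postnatal day 6. All mice carried a floxed gene, Rspo3fl/fl in 1 line and Evifl/fl in the other. The 3 Rspo3-iECKO and 2 Evi-iECKO samples also carried Cdh5CreERT2, an inducible Cre recombinase driven by the promoter of the endothelial cadherin gene Cdh5. The 2 Rspo3-WT and 3 Evi-WT samples lacked Cre and kept the floxed allele of their own line. Rspo3 encodes a secreted enhancer of Wnt signalling, and Evi, also called Wls, encodes the carrier that brings Wnt ligands to the cell surface. The question was whether transcripts of matrix genes in the sorted cells followed a deletion, the mouse line or single arrays.

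Fibroblasts build much of the collagen and elastin scaffold of the lung. Type I and type III collagens assemble into fibrils, decorin (Dcn) and lumican (Lum) bind these fibrils and regulate their assembly, and elastin (Eln) is laid down on microfibrils of fibrillin-1 (Fbn1) while alveoli form after birth. In a sort for endothelium such transcripts mark mesenchymal cells that remain in the sample, and some of them can also be made by vascular cells. In RNA from a whole sorted sample, fewer cells of a type and less RNA per cell cannot be told apart.

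The arrays detected 46.5% to 51.3% of all probes, with a detection p below 0.05 counted as detected. The median raw intensity per array was 89.6 to 110. Cdh5 was detected on all 10 arrays at log2 levels of 8.81 to 9.74, and all 12 pan-endothelial markers on the list passed the detection filter. Wls, the deleted gene of the Evi line, differed by -1.10 on the log2 scale between Evi-iECKO and Evi-WT, the lower level being that after deletion (SE 0.27, limma adjusted p = 0.357). The 2 Rspo3 probes were detected on 0 of the 5 arrays of the Rspo3 line, so the arrays do not check that deletion. Evi-iECKO replicate 2 stood apart in markers of alveolar type 2 cells, the surfactant-making epithelial cells, whose 9 tested markers summed to a normalized intensity of 1976, against 359 in Evi-iECKO replicate 1 and 368 to 607 in Evi-WT. Results of the Evi line are therefore also given without that array where it moved them by over 1.5 times or turned their sign. Levels below are normalized log2 intensities with an offset of 16 added before the logarithm, so a probe without signal reads close to 4 and differences of dim probes are understated.

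Matrix transcripts were mostly dim in the sorted cells. Of the 21 probes, 4 were detected on all 10 arrays, 1 each for Col1a2, Fbn1, Eln and Gpc3, and 3 were detected on none, 1 each for Dcn, Gpc3 and Tcf21. Of the 9 tested genes, 7 were detected on at least 5 arrays by the probe used. The Dcn probe was detected on 4 arrays, 3 of them Rspo3-iECKO, and the Pdgfra probe on 2 arrays, both deleted, so these genes passed the filter mainly or wholly through deleted arrays. Counts of members are therefore also given over the other 7 genes. Between 7 and 11 of the 21 probes were detected on any one array. The Evi-WT arrays detected 8, 7 and 7 of them, the Evi-iECKO arrays 10 each, the Rspo3-WT arrays 8 and 11, and the Rspo3-iECKO arrays 10, 11 and 11. Elastin and the main fibrillin-1 probe were well above background on every array, with raw intensities of 299.5 to 486 and 151 to 255. The other Fbn1 probes, ILMN_1252506 and ILMN_2574595, were each detected on 2 arrays. Over the 10 arrays they correlated with the main probe at a Pearson's r of 0.025 and -0.41, given as a description.

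**Figure D1:**
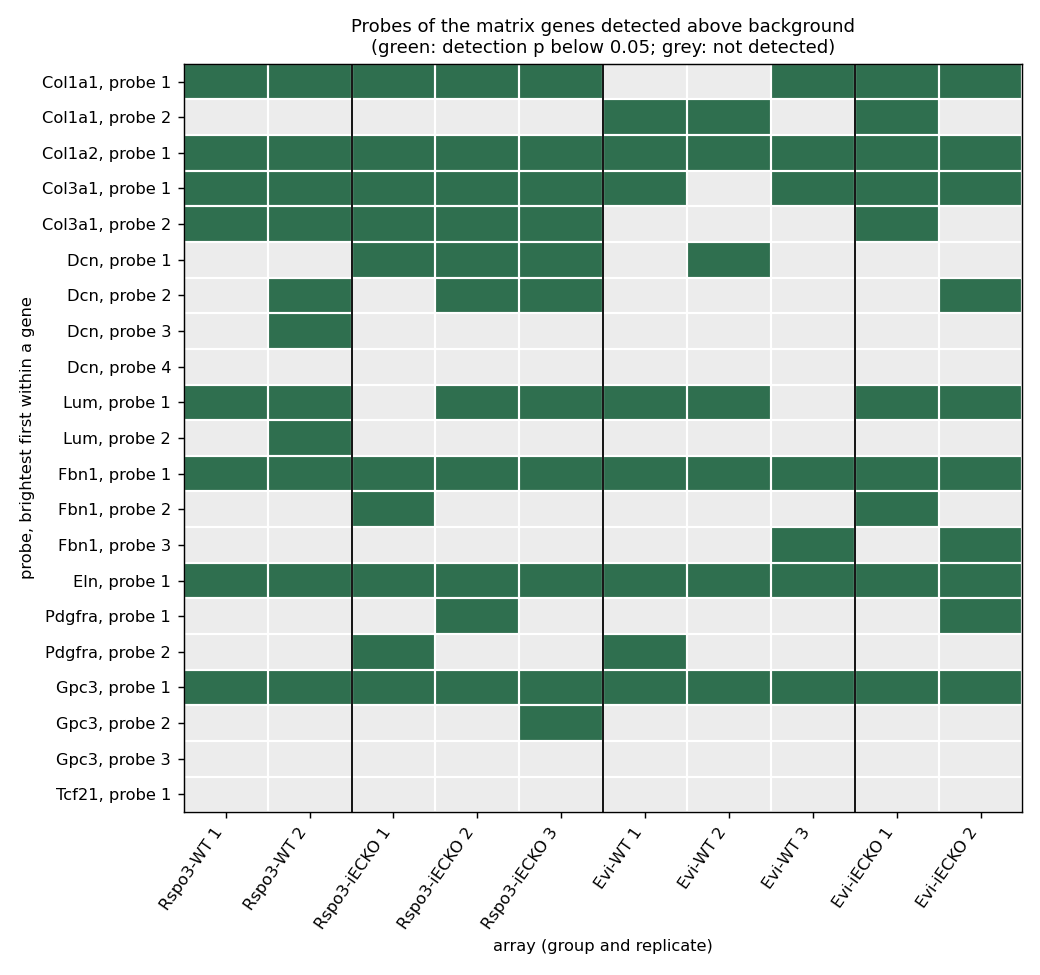
Detection of the 21 probes (rows, grouped by gene, brightest probe of a gene first) on the 10 arrays (columns, grouped by genotype); green cells have a detection p below 0.05 and grey cells do not. The rows of Col1a2, Eln and the first probes of Fbn1 and Gpc3 are green throughout, the Tcf21 row is grey throughout, and the first Dcn probe is green on the 3 Rspo3-iECKO arrays and on 1 other array.

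Upstream sequences are shown for 3 genes, Col1a2 as the collagen gene detected on every array, and Col3a1 and Gpc3 as the genes with the largest differences in the Evi line described further on. RefSeq promoter entries of the GRCm38.p6 assembly were found for 6 of the 10 genes. The sequences are the 250 bases before the annotated start, written 5′ to 3′ on the gene's own strand, at chr6:4505368-4505617 (plus strand) for Col1a2, chr1:45311288-45311537 (plus strand) for Col3a1 and chrX:52613975-52614224 (minus strand) for Gpc3. Capitals mark 3 searched motifs on either strand, the CCAAT box (CCAAT or ATTGG), the TATA box (TATAAA or TTTATA) and the GC box (GGGCGG or CCGCCC).
Col1a2: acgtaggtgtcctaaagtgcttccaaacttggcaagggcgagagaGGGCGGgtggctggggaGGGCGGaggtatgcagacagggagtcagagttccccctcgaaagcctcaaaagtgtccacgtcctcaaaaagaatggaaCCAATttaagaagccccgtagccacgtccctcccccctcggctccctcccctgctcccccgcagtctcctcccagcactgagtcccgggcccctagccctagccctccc
Col3a1: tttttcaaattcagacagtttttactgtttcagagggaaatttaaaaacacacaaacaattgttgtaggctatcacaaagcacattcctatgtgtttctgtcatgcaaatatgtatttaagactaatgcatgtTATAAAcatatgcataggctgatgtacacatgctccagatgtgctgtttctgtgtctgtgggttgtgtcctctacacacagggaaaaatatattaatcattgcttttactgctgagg
Gpc3: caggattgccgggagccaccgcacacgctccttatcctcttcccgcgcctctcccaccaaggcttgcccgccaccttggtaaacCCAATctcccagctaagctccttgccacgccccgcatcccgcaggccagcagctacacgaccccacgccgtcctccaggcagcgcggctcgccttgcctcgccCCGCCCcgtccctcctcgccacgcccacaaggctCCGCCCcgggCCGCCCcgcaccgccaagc
Bases G and C made up 62% of the Col1a2 window and 71.6% of the Gpc3 window but 35.2% of the Col3a1 window, against a median of 52.4% over 32851 promoters. Col1a2 held 1 CCAAT box and 2 GC boxes, Gpc3 held 1 CCAAT box and 3 GC boxes, and Col3a1 held 1 TATA box. These are matches of letters anywhere in the window. Their distance from the start was not weighed, so none is shown to be a working promoter element. Over all promoters of the same length, 33.8% held a CCAAT box, 12.4% a TATA box and 32.7% a GC box. The Col3a1 and Gpc3 windows shared none of the 3 motifs. Dcn and Lum lie next to each other, with 0 annotated genes between them.

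Loss of Rspo3 left most matrix transcripts within the spread of their arrays. None of the 9 tested genes passed an adjusted p below 0.05 in limma, and 0% of all genes passed it. At an unadjusted p below 0.05 there was 1 gene, Dcn, of 9, where 4.35% of all genes had such a p. The median log2 difference over the 9 genes was 0.077, against -0.0076 over all genes tested, and 6 of 9 lay above 0, where 48.5% of all genes did. The 3 Rspo3-iECKO arrays lay wholly above the 2 Rspo3-WT arrays for 2 of 9 genes, Dcn and Pdgfra, while 10.8% of all genes did so. These are the 2 genes that passed the filter through deleted arrays. Over the other 7 genes, 4 lay above 0, 0 had an unadjusted p below 0.05 in limma, against 4.04% of the 12936 genes then tested, and the median was 0.028.

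Dcn, which encodes decorin, was the matrix gene with the largest difference in the Rspo3 line. Its brightest probe (ILMN_2747959) read 4.72, 5.02 and 5.07 on the Rspo3-iECKO arrays and 4.11 and 4.12 on the Rspo3-WT arrays. It read 4.26, 4.54 and 4.14 on the Evi-WT arrays and 4.52 and 4.44 on the Evi-iECKO arrays. The 3 Rspo3-iECKO arrays were thus the highest of all 10, and the groups of that line did not overlap. The probe was detected on 3 of 3 Rspo3-iECKO arrays, 0 of 2 Rspo3-WT arrays and 1 other array, so it passed the filter on dim probes mainly through the group in which it was high. The log2 difference was 0.82 (SE 0.19, limma adjusted p = 0.661). Since the control group was not well above background, the fold of this probe is given against the lowest detected signal, as 1.55-fold higher in Rspo3-iECKO. This holds for 1 probe at the scaling used here, leaves its SE aside and is no lower limit for the gene. Leaving out any 1 array of the series kept the difference between 0.74 and 0.90, but other scalings moved it from 0.28 (no background correction) to 0.96 (median scaling).

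Other probes of Dcn did not repeat this pattern. The next brightest (ILMN_2596346) read 4.14, 5.06 and 4.43 on the Rspo3-iECKO arrays and 4.29 and 4.68 on the Rspo3-WT arrays, so the groups overlapped. Its log2 difference was 0.06 (SE 0.26). Over the 10 arrays the 2 probes correlated with a Pearson's r of 0.36, given as a description. The mean of the 2 probes gave 0.44 (SE 0.19). Of the remaining probes of Dcn, 1 was detected on 1 Rspo3-WT array and the other on no array. Lum, the neighbouring gene, went the other way in value, reading 4.32, 4.48 and 4.45 in Rspo3-iECKO and 5.02 and 4.45 in Rspo3-WT. The high value of 5.02 came from 1 control array, and the difference of -0.31 (SE 0.23) was -0.03 without it and -0.60 without the other control array.

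The collagen genes of the Rspo3 line overlapped between genotypes. Col1a1, the main chain of type I collagen, read 5.66, 4.77 and 5.15 in Rspo3-iECKO and 5.03 and 4.92 in Rspo3-WT. The highest of these, Rspo3-iECKO replicate 1, was also the array farthest from its group mean, by 0.47, and the difference of 0.22 (SE 0.24) became -0.01 without it. Col1a2, the partner chain of type I collagen, read 5.05, 5.16 and 5.11 in Rspo3-iECKO and 5.30 and 5.01 in Rspo3-WT, a difference of -0.05 (SE 0.18). Col3a1, the chain of type III collagen, read 5.36, 5.18 and 5.33 in Rspo3-iECKO and 5.32 and 5.20 in Rspo3-WT, a difference of 0.03 (SE 0.21). For Col1a2 the control arrays spanned the deleted ones, and for Col3a1 the deleted arrays spanned the controls.

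The elastic fibre genes did not separate the genotypes of the Rspo3 line either. Eln read 8.0, 8.08 and 7.94 in Rspo3-iECKO and 7.69 and 8.17 in Rspo3-WT, where the lowest and the highest value both came from controls. Its difference of 0.08 (SE 0.25) was -0.17 without the first control and 0.32 without the other. Fbn1 read 6.90, 6.92 and 6.87 in Rspo3-iECKO and 6.70 and 6.91 in Rspo3-WT, a difference of 0.09 (SE 0.26). The 3 deleted arrays lay within a range of 0.13 for Eln and 0.054 for Fbn1, inside or next to the wider range of the controls. For the other Fbn1 probes the groups overlapped too, with differences of 0.19 (SE 0.21) and -0.03 (SE 0.20).

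Of the fibroblast markers, Pdgfra and Tcf21 were close to background in the Rspo3 line and Gpc3 was above it. Pdgfra, the receptor for platelet-derived growth factor on lung mesenchyme, read 4.39, 4.39 and 4.19 in Rspo3-iECKO and 4.13 and 4.16 in Rspo3-WT. The groups did not overlap, but the probe was detected on 1 of these 5 arrays, and the log2 difference of 0.18 (SE 0.20) was within its SE. Set against the lowest detected signal, the fold was 1.01. The groups overlapped for the second Pdgfra probe (ILMN_2544724), with a log2 difference of 0.11 (SE 0.20) and a fold of 0.99 against the lowest detected signal. That probe was detected on 1 Rspo3-iECKO and 1 Evi-WT array. Gpc3, a cell-surface heparan sulfate proteoglycan, read 5.06, 5.45 and 4.84 in Rspo3-iECKO and 5.08 and 5.27 in Rspo3-WT, a difference of -0.07 (SE 0.20). Tcf21, a transcription factor of lung mesenchyme, read 4.07 to 4.14 over all 10 arrays with its 1 probe not detected on any of them.

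**Figure D2:**
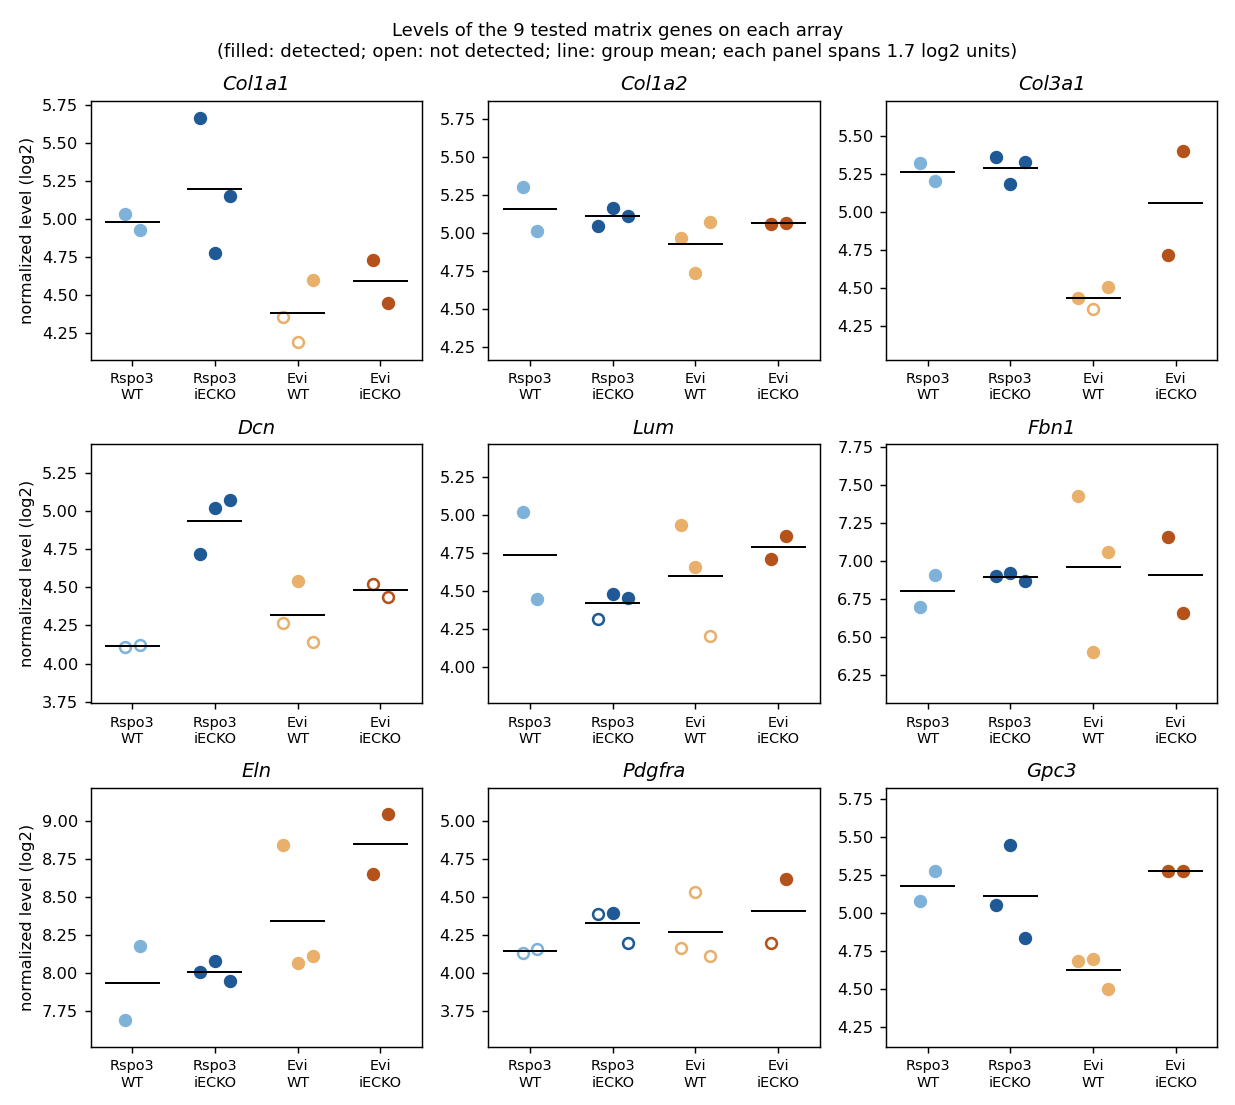
Normalized log2 level (y axis) of the 9 tested genes on each array, by group (x axis), with filled points for detected and open points for not detected probes and a line at the group mean; every panel spans the same number of log2 units. The 3 Rspo3-iECKO points of Dcn lie above all other arrays, both Evi-iECKO points of Gpc3 lie at 5.27 above the 3 Evi-WT points, and the points of Fbn1 spread most within Evi-WT.

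In the Evi line 8 of the 9 genes had a higher mean after deletion, with a median log2 difference of 0.19 against 0.0090 over all genes, 51.4% of which lay above 0. None passed an adjusted p below 0.05 in limma, and 0% of all genes did. At an unadjusted p below 0.05 there were 2 of 9 genes, Gpc3 and Col3a1, both higher in Evi-iECKO, against 7.99% of all genes in either direction. Without Evi-iECKO replicate 2 there was 1. Over the 7 genes detected on at least 5 arrays, 6 lay above 0 and 2 had such a p, against 8.28% of the genes then tested. For Gpc3 and Col3a1 both Evi-iECKO arrays lay above the 3 Evi-WT arrays, as they did for 10.8% of all genes.

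Gpc3 had the tightest arrays of the Evi line. It read 5.27 on both Evi-iECKO arrays and 4.68, 4.70 and 4.5 on the Evi-WT arrays, and was detected on all 5. The groups did not overlap, and the log2 difference was 0.65 (SE 0.20, limma adjusted p = 0.469). Leaving out any 1 array kept it between 0.60 and 0.70, and it was 0.66 without Evi-iECKO replicate 2. It depended on the scaling, at 0.18 without background correction and 0.17 with the authors' normalized values. The other 2 Gpc3 probes were not detected on any array of the Evi line. Gpc3 is known as a glypican of embryonic mesenchyme that binds growth factors and hedgehog ligands.

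Col3a1 depended on 1 array. Its brighter probe (ILMN_1258629) read 4.71 and 5.40 on the Evi-iECKO arrays and 4.43, 4.36 and 4.51 on the Evi-WT arrays. The 2 deleted arrays differed by 0.68, more than the 3 controls did among themselves, and the value of 5.40 was that of Evi-iECKO replicate 2. The log2 difference was 0.62 (SE 0.21, limma adjusted p = 0.470). It was 0.28 without Evi-iECKO replicate 2 (limma adjusted p = 0.658) and 0.98 without Evi-iECKO replicate 1 (adjusted p = 0.091). With all arrays it was 0.17 without background correction and 0.15 with the authors' normalized values. The second probe (ILMN_2683958) ordered the deleted arrays the other way, at 4.53 and 4.25 for replicates 1 and 2 against 4.25, 4.16 and 4.24 in Evi-WT. Its difference was 0.18 (SE 0.17). Evi-iECKO replicate 2 was the array with high alveolar type 2 markers, and the part of that in the Col3a1 value was not tested.

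The type I collagen genes overlapped between genotypes in the Evi line. Col1a1 read 4.73 and 4.45 in Evi-iECKO and 4.36, 4.19 and 4.60 in Evi-WT, with detection on 2 of 2 and 1 of 3 arrays and a difference of 0.21 (SE 0.24). That value was 0.067 without Evi-iECKO replicate 1 and 0.35 without replicate 2. Its second probe, annotated to another transcript, was detected on 3 arrays of the Evi line and on 0 of the Rspo3 line, and correlated with the first at a Pearson's r of -0.48 over the 10 arrays, as a description. Col1a2 read 5.06 and 5.07 in Evi-iECKO and 4.97, 4.74 and 5.07 in Evi-WT, a difference of 0.14 (SE 0.18). For both genes the deleted arrays fell within or beside the control range.

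Elastin had a wide spread over the arrays of the Evi line. It read 8.65 and 9.04 in Evi-iECKO and 8.84, 8.07 and 8.11 in Evi-WT. Evi-WT replicate 1, at 8.84, lay between the deleted arrays and 0.50 above its group mean, so the groups overlapped. The difference was 0.51 (SE 0.25, limma adjusted p = 0.668), and it was 0.76 without Evi-WT replicate 1 and 0.31 without Evi-iECKO replicate 2. Fbn1 read 7.16 and 6.66 in Evi-iECKO and 7.43, 6.41 and 7.06 in Evi-WT. Its controls spanned 1.02 and held both the lowest and the highest array of the series. The difference of -0.06 (SE 0.26) ranged from -0.34 to 0.20 when 1 array was left out, and was 0.20 without Evi-iECKO replicate 2. For the other Fbn1 probes the groups overlapped too, with differences of 0.12 (SE 0.21) and -0.04 (SE 0.20).

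By their brightest probes the dim genes of the Evi line overlapped. Dcn read 4.52 and 4.44 in Evi-iECKO, not detected on either, and 4.26, 4.54 and 4.14 in Evi-WT, a difference of 0.16 (SE 0.19). The groups did not overlap for the second Dcn probe (ILMN_2596346), whose log2 difference was 0.34 (SE 0.26). Its lowest deleted array, at 4.31, lay above its highest control array, at 4.23. Of the 5 arrays of this line, only Evi-iECKO replicate 2 detected that probe. Lum read 4.71 and 4.86 in Evi-iECKO and 4.94, 4.65 and 4.21 in Evi-WT, a difference of 0.19 (SE 0.23) that was -0.01 without Evi-WT replicate 3 and 0.11 without Evi-iECKO replicate 2. Pdgfra read 4.19 and 4.62 in Evi-iECKO and 4.16, 4.53 and 4.11 in Evi-WT. Its 1 detected array was Evi-iECKO replicate 2, and its difference was 0.14 (SE 0.20). The second Pdgfra probe gave 0.00040 (SE 0.20). Without Evi-iECKO replicate 2 the first probe failed the detection filter, and the second stood for the gene at -0.15.

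**Figure D3:**
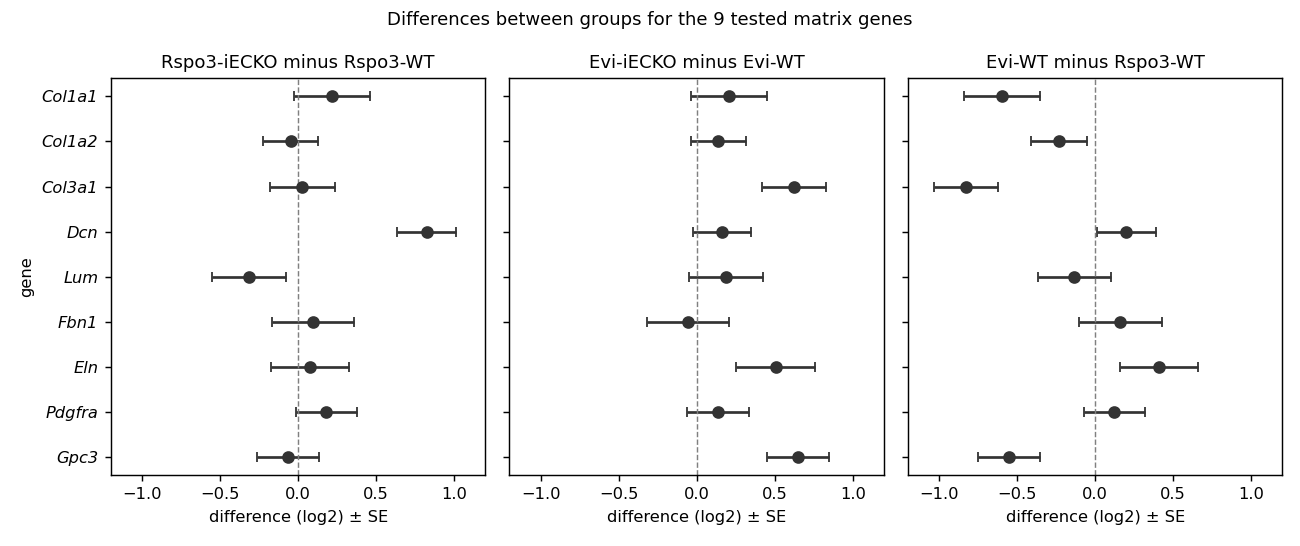
Log2 difference with its standard error (x axis) for each of the 9 tested genes (y axis) between deleted and control arrays of each line and between the control arms of the lines. The Dcn point of the Rspo3 line stands at 0.82, the Gpc3 and Col3a1 points of the Evi line at 0.65 and 0.62, and the same 2 genes stand at -0.55 and -0.83 between the control arms, which share the Evi-WT arrays with the Evi comparison.

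The lines were also set against each other. The mean of the deletion effects, each taken within its own line with separate controls, had a median of 0.21 over the 9 genes against -0.00091 over all genes, and 8 of 9 lay above 0 where 49.8% of all genes did. None passed an adjusted p below 0.05 in limma (0% of all genes), and 2 of 9 had an unadjusted p below 0.05, Dcn and Col3a1, against 5.82% of all genes. The Dcn value of 0.49 (SE 0.13, limma adjusted p = 0.537) is a fitted value and no bound, since its probe was not detected in Rspo3-WT or Evi-iECKO. Col3a1 gave 0.32 (SE 0.15, limma adjusted p = 0.837), and 0.16 without Evi-iECKO replicate 2. Over the 7 genes detected on at least 5 arrays, 6 lay above 0 and 0 had such a p, against 5.87% of the genes then tested. Gpc3 and Eln each gave 0.29, with SE of 0.14 and 0.18. The Evi part of the Eln value was 0.51, and 0.31 without Evi-iECKO replicate 2. With 1 array of the series left out, the mean effect of Eln ranged from 0.17 to 0.42. The median of 0.21 equals the value of Col1a1, whose Rspo3 part rested on 1 array.

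The 2 deletions were compared directly by the difference of their effects, Evi minus Rspo3. The median over the 9 genes was 0.19 against 0.018 over all genes, with 5 of 9 above 0, as were 52.2% of all genes. None of the 9 genes passed an adjusted p below 0.05 in limma (0% of all genes). At an unadjusted p below 0.05 there were 2, against 6.06% of all genes. Gpc3 differed by 0.71 (SE 0.28, limma adjusted p = 0.797), against -0.07 in the Rspo3 line alone. The Dcn value was -0.66 (SE 0.26, limma adjusted p = 0.809), again fitted on 2 groups in which the probe was not detected, and without Dcn and Pdgfra the count was 1 of 7. Col3a1 differed by 0.59 (SE 0.29), and by 0.25 without Evi-iECKO replicate 2. After adjustment over all genes, then, no matrix gene was shown to respond differently to the deletions.

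The control arms of the lines gave a median log2 difference of -0.13 over the 9 genes against 0.017 over all genes, with 4 of 9 above 0, as were 52.4% of all genes. Between Evi-WT and Rspo3-WT, 3 of 9 genes had an unadjusted p below 0.05, Col3a1, Gpc3 and Col1a1, all lower in Evi-WT, where 4.53% of all genes were lower and 8.81% either way. None of the 9 passed an adjusted p below 0.05 in limma, against 0.0372% of all genes. Col3a1 was lower by a log2 difference of -0.83 (SE 0.21, limma adjusted p = 0.214), and its second probe gave -0.34 (SE 0.17). Col1a1 gave -0.60 (SE 0.24, limma adjusted p = 0.510) with its main probe and 0.16 (SE 0.19) with its second. Gpc3 gave -0.55 (SE 0.20, limma adjusted p = 0.433). For these 3 genes the Evi-WT arrays lay wholly below the Rspo3-WT arrays, as for 11.9% of all genes. The main Dcn probe lay wholly higher in Evi-WT, as did 13.5% of all genes, but it was detected on 1 of these 5 arrays. The second Dcn probe lay wholly lower in Evi-WT, at -0.30 (SE 0.26), and was also detected on 1 of these 5 arrays. Of the Fbn1 probes, ILMN_2574595 lay wholly higher, at 0.22 (SE 0.20), detected on 1 of these 5 arrays. The main Fbn1 probe, at 0.16 (SE 0.26), and ILMN_1252506, at -0.03 (SE 0.21), overlapped. Lists of other cell types went both ways between the control arms. Of the tested genes, 9 of 12 pan-endothelial markers (median -0.17) and 8 of 9 alveolar type 2 markers (median -0.32) had a difference below 0. So had 8 of 8 general epithelial and alveolar type 1 markers (median -0.11) and 7 of 8 pericyte and smooth muscle markers (median -0.27). The difference was above 0 for 4 of 6 leukocyte markers (median 0.10) and 2 of 2 mesothelial markers (median 0.23). Other lung fibroblast markers had 6 of 12 above 0 (median -0.0078). The part of these lists in the matrix values was not tested. This comparison shares its Evi-WT arrays with the Evi deletion, so the low Evi-WT values of Col3a1 and Gpc3 enter both. For Col1a1 all 5 arrays of the Evi line, at 4.19 to 4.73, lay below all 5 of the Rspo3 line, at 4.77 to 5.66, the 1 gene of 9 to do so where 1.88% of all genes did. Line and any handling that differed between the lines cannot be told apart.

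Array-to-array spread was weighed against group means by the share of each gene's variation over the 10 arrays that lay between the 4 groups. It was 85.8% for Dcn, 83.4% for Col3a1, 74.1% for Gpc3, 68.4% for Col1a1 and 65.5% for Eln. It was 43.1% for Col1a2, 30.5% for Lum, 25.0% for Pdgfra and 4.42% for Fbn1. The median over all genes was 36.8%, and 33.3% would be had on average with no group differences. Fbn1 had the smallest share of the 9 genes, and Col3a1 and Gpc3 had large ones. The Dcn share is a description only, since the group in which it was high admitted the probe and its control values lay at background. The control arms differed by -0.83 for Col3a1, -0.60 for Col1a1, -0.55 for Gpc3 and 0.41 for Eln. The shares of these genes thus also hold differences between the lines. Their Evi deletion differences were 0.62, 0.21, 0.65 and 0.51, and their Rspo3 deletion differences 0.03, 0.22, -0.07 and 0.08. How each share divides between line and deletion was not computed.

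**Figure D4:**
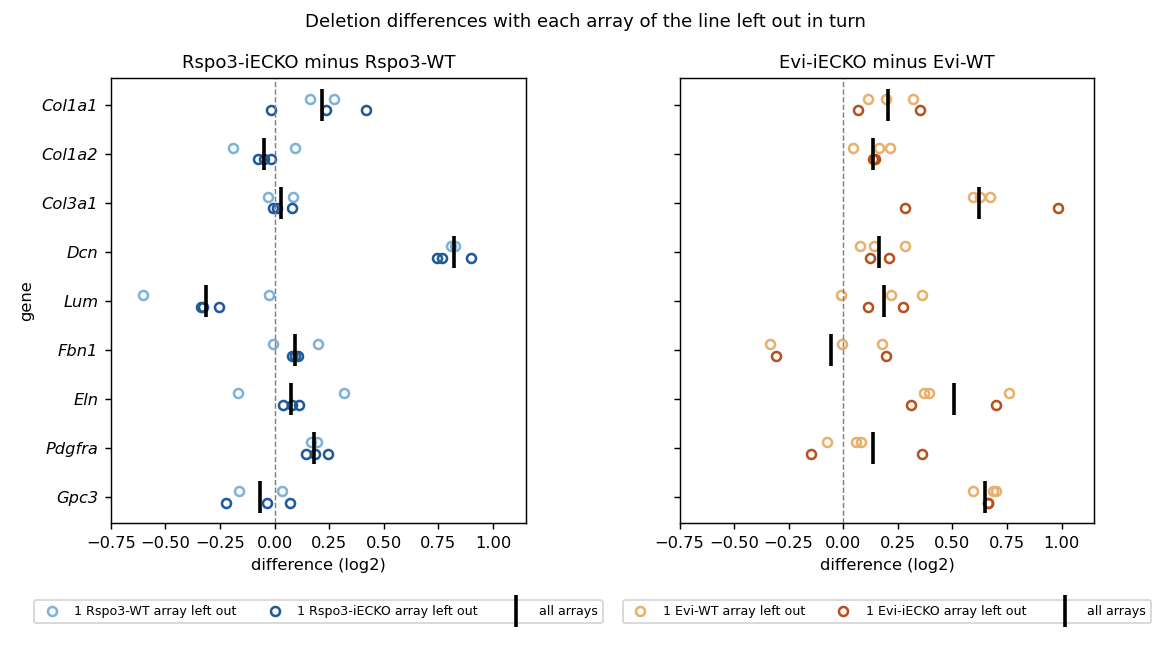
Log2 difference (x axis) of each gene (y axis) in the Rspo3 line and the Evi line with all arrays (black bar) and with each array of that line left out in turn (circles, coloured by the group of the array left out). The circles of Dcn in the Rspo3 line and of Gpc3 in the Evi line stay close to their bars, at 0.74 to 0.90 and 0.60 to 0.70, while those of Col3a1 in the Evi line reach from 0.28 to 0.98 and those of Fbn1 from -0.34 to 0.20.

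The matrix genes did not move as one over the arrays. Of 36 pairs of genes, 22 had a Pearson's r above 0 over the 10 arrays, with a median of 0.12, and 20 with a median of 0.040 once group means were removed, all given as descriptions of arrays that share groups. Col1a1 and Col3a1 had the highest r, 0.69, which was 0.046 within groups. Fbn1 and Eln, which meet in the same fibre, had 0.37, and 0.51 within groups. The mean centred level of the 9 genes was -0.24 and -0.23 on Evi-WT replicates 2 and 3, -0.035 on Evi-WT replicate 1, and 0.070 and 0.16 on the Evi-iECKO arrays. It was 0.064 to 0.12 on Rspo3-iECKO arrays and -0.018 and -0.00086 on Rspo3-WT arrays. Among all other genes the pattern of this mean over the 10 arrays was most like that of Tmem70 (Pearson's r = 0.957), Tubb6 (0.918), Zfp322a (0.912), Mzt1 (0.910), 5033403J15Rik (0.902) and Haus5 (0.899), which is a ranking over 16144 genes with no test.

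Further matrix genes gave no passing gene in any comparison by limma's adjusted p. Of 11 other fibrillar, fibril-associated and type VI collagens, 10 were tested, and their medians for the Rspo3 and the Evi deletion were 0.022 and 0.10, with 0 at an unadjusted p below 0.05 in either. Of 20 enzymes that fold, cleave or cross-link collagen, 12 were tested, with medians of 0.028 and 0.070. Loxl4, a lysyl oxidase family member, had the smallest p of them in the mean of the deletion effects, at -0.39 (SE 0.16, limma adjusted p = 0.823), a fitted value and no bound, since its probe was not detected on any Rspo3-iECKO array. Of 14 further elastic fibre and microfibril genes, 11 were tested, with medians of -0.0047 and 0.083. Proteoglycans related to Dcn and Lum, 4 of 8 tested, had medians of -0.043 and 0.0018, and matrix metalloproteinases and their inhibitors, 8 of 8 tested, had 0.025 and 0.21. The PDGF ligands, 3 tested of a list of 5 with Pdgfrb, had -0.091 and 0.022.

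Ltbp3, which encodes a latent TGF-beta binding protein of microfibrils, had the smallest p of the elastic fibre list. It read 4.83, 5.49 and 4.97 in Rspo3-iECKO, 5.92 and 5.49 in Rspo3-WT, 5.07 and 5.17 in Evi-iECKO, and 6.53, 5.54 and 5.69 in Evi-WT. The Rspo3 groups met at 5.49. Both deleted Evi arrays lay below their controls, and the share of all genes that did so is not given here. For Ltbp3 the mean of the deletion effects was -0.70 (SE 0.21, limma adjusted p = 0.593), opposite in sign to the 0.29 of Eln. Gpc4, a glypican like Gpc3, also had a sign opposite to it. It read 4.35, 4.24 and 4.46 in Rspo3-iECKO, 4.74 and 4.93 in Rspo3-WT, 4.22 and 4.34 in Evi-iECKO, and 4.63, 5.02 and 4.55 in Evi-WT. All 5 deleted arrays lay below all 5 control arrays, as for 0.31% of all genes and 0 of the 9 matrix genes. It was detected on 5 of 5 control and 1 of 5 deleted arrays, so it passed the filter through the controls, and the mean effect of -0.47 (SE 0.13, limma adjusted p = 0.580) is a fitted value and no bound. In the Evi line, where no deleted array detected it, the Gpc4 probe was 1.31-fold lower in Evi-iECKO when set against the lowest detected signal. This again holds for the scaling used here and leaves the SE aside. Gpc2 gave -0.37 (SE 0.16, limma adjusted p = 0.837). These 3 were named as the genes of smallest p in their lists, so their size is partly a matter of choice.

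Of 18 other lung fibroblast markers, 12 were tested, and Scara5, Clec3b, Fgf7, Fgfr4, Wnt2 and Npnt were not detected on any array. Their median was 0.13 for the Rspo3 deletion and -0.0013 for the Evi deletion. Their summed normalized intensity was 287 to 297 in Rspo3-WT, 319 to 343 in Rspo3-iECKO, 302 to 345 in Evi-WT, and 296 and 487 in Evi-iECKO replicates 1 and 2. The Rspo3 groups did not overlap in this sum, and the high value of the Evi line was again that of replicate 2. Slit2, a secreted guidance ligand on this list, differed in sign between the lines. It read 5.86, 5.60 and 5.99 in Rspo3-iECKO, 5.50 and 4.93 in Rspo3-WT, 4.94 and 4.5 in Evi-iECKO, and 5.38, 5.90 and 6.18 in Evi-WT. In the Rspo3 line the deleted arrays lay wholly above their controls, as for 10.8% of all genes. In the Evi line they lay wholly below, and the share of all genes that did so is not given here. The differences of Slit2 were 0.60 (SE 0.26) and -1.10 (SE 0.26), and neither passed an adjusted p below 0.05 in limma. The difference of the effects was -1.71 (SE 0.37, limma adjusted p = 0.628).

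Markers of other cells were set beside the matrix genes. Of 12 pericyte and smooth muscle markers, 8 were tested. Pdgfrb, Kcnj8 and Higd1b were not detected on any array. By their best probe Cspg4, Rgs5, Acta2 and Des were detected on all 10 arrays and Notch3 on 8. The summed normalized intensity of the 8 tested genes was 375 to 430 in Rspo3-WT, 347 to 364 in Rspo3-iECKO, 308 to 332 in Evi-WT and 315 to 398 in Evi-iECKO. This sum was lower in Rspo3-iECKO than in Rspo3-WT where Dcn was higher, and lower in Evi-WT than in Rspo3-WT along with Col3a1, Col1a1 and Gpc3. Its part in those values was not tested. By the mean centred level of the same genes the Rspo3 groups overlapped. That level was 0.38 and -0.00062 on Rspo3-WT replicates 1 and 2 and 0.022 to 0.063 in Rspo3-iECKO. Alveolar type 2 markers, 9 of 9 tested, summed to 502 and 781 in Rspo3-WT and 496 to 752 in Rspo3-iECKO. Of 8 leukocyte markers, 6 were tested, and they summed to 177 and 401 in Evi-iECKO replicates 1 and 2 against 195 to 205 in Evi-WT. Evi-iECKO replicate 2 was the highest array of the Evi line in the sums of alveolar type 2, leukocyte, pericyte and other fibroblast markers. Of the deleted pair it had the higher value of Col3a1, Eln, Lum and Pdgfra, the lower value of Col1a1, Dcn and Fbn1, and values of Col1a2 and Gpc3 within 0.01 of replicate 1.

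**Figure D5:**
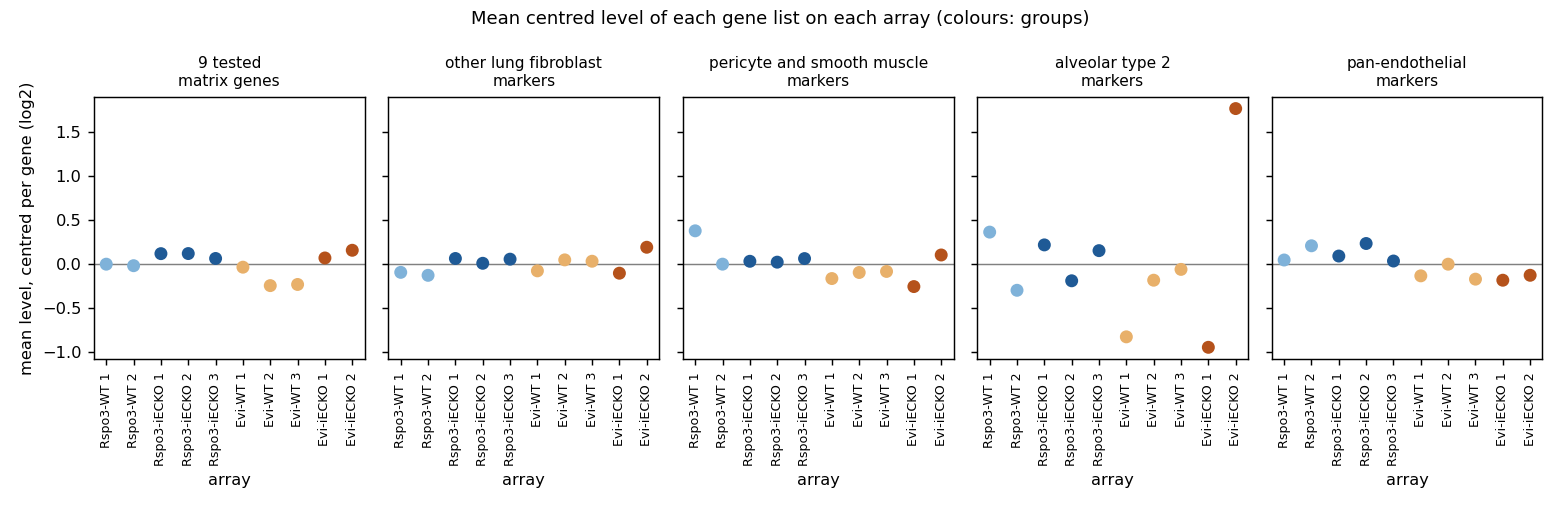
Mean log2 level of each gene list, centred per gene (y axis), on each array (x axis, coloured by group), for the 9 matrix genes and 4 marker lists. The matrix genes range from -0.24 to 0.16, while alveolar type 2 markers range from -0.95 on Evi-iECKO replicate 1 to 1.77 on Evi-iECKO replicate 2.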

How the data were processed

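RNA from sorted lung endothelial cells was isolated with a PicoPure kit, amplified by NuGEN single primer isothermal amplification and labelled with biotin, per the labels' protocols. The deposited main file holds the mean bead intensity of every probe on every array, not normalized, each with a detection p-value, per the file headers. They also deposited normalized intensity on a linear scale. How that normalization was done, the scanner, the origin of the detection p, the tamoxifen schedule, the sort markers and any pooling of mice are, for these samples, not given in the sources used here. P-values therefore measure only the spread between these samples, which may be technical. The number of arrays limits the precision.

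R 4.3.3 with limma 3.58.1 was used, and Python 3.11.15 with matplotlib 3.10.9 for figures. The function neqc (offset 16) corrected background and set quantiles equal, with negative controls inferred from the detection p. Of 46237 probes, 30017 were kept for being detected (p below 0.05) on 2 or more arrays. Platform annotation gave 1 symbol for 35784 probes and none for 10453. The brightest probe stood for each of 16144 genes. All 10 arrays entered 1 limma model of 4 group means with eBayes, followed by Benjamini-Hochberg adjustment over all genes and a threshold of 0.05. Where no array of a group detected a probe, its level there is only a bound, set against the lowest signal among detected probes of each array. The fit was tested on simulated data. The named genes were all members, the check genes Cdh5, Wls and Rspo3, up to 4 genes per list with the smallest p in the mean of the deletion effects, and the 6 genes most like the members' mean over the arrays. The members and lists were chosen with earlier results of these data known. Alternatives were other background corrections, normalizations, offsets and filters, the mean of all probes per gene, the authors' normalized values, array weights, another variance prior, a replicate block, fits to 1 line and leaving out each array.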

Additional observations from a re-analysis of the deposited data

How the results depend on the processing

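Of 998 values of the 9 genes under alternatives, 0 passed an adjusted p below 0.05, and 41 changed sign while within their standard error. The smallest limma adjusted p over alternatives was 0.108 for Dcn in the Rspo3 line (median scaling), 0.091 for Col3a1 in the Evi line (without Evi-iECKO replicate 1), 0.357 for Gpc3 in the Evi line and 0.096 for Col3a1 between control arms. The mean of the deletion effects for Pdgfra turned to -0.017 without Evi-iECKO replicate 2, where its second probe stood for the gene. Dcn between control arms turned to -0.050 with the mean of all probes, where its 2 probes past the filter gave 0.20 and -0.30. Why the probes of a gene differed was not tested. At an unadjusted p below 0.05 the counts were 1 in the Rspo3 line, 2 in the Evi line, 2 for their mean, 2 for their difference and 3 between control arms. Over settings they ranged from 0 to 1, 1 to 3, 0 to 3, 0 to 3 and 1 to 3, and those of the Rspo3 line and of the mean were 0 where detection on at least 5 arrays was required.

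The medians over the 9 genes moved as follows. Without background correction they were 0.030 (Rspo3), 0.061 (Evi), 0.067 (mean), 0.053 (difference) and -0.043 (control arms). With the authors' normalized values they were 0.023, 0.061, 0.073, 0.047 and -0.045, and with an offset of 50 they were 0.065, 0.074, 0.10, 0.091 and -0.057. These scales compress dim probes by construction. With normexp without negative controls they were 0.046 (Rspo3), 0.092 (Evi), 0.097 (mean) and 0.076 (difference). The mean of all probes gave 0.11 for the mean effect, and no filter gave 0.11 for the difference. Requiring detection on at least 5 arrays, which left 7 genes, gave 0.028 for Rspo3, 0.43 for the difference and -0.23 between control arms. Median scaling gave 0.21 (Rspo3) and -0.017 (difference), while the median of all genes moved to 0.11, -0.13 and -0.090 for Rspo3, the difference and the control arms, and the share above 0 from 48.5% to 66.0%, 52.2% to 36.4% and 52.4% to 37.1%, and from 49.8% to 60.0% for the mean effect. Leaving out 1 array gave ranges of -0.0081 to 0.16 (Rspo3), 0.18 to 0.27 (Evi), 0.14 to 0.27 (mean), 0.043 to 0.26 (difference) and -0.37 to 0.063 (control arms). The lowest Rspo3 value was that without Rspo3-iECKO replicate 1, and the control arms turned positive without Rspo3-WT replicate 1 (0.059) or Evi-WT replicate 3 (0.063).

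Samples with the same number did not deviate together (correlations of -0.015, 0.00020, 0.13 and -0.12), so the numbers were not taken as pairs. With the replicate block 0 of 45 values passed, the smallest adjusted p was 0.393, and the median between control arms was -0.045. The count of all genes past the adjusted threshold between control arms was 6, and ranged from 0 to 45 over settings. Most matrix probes were near background, where the arrays resolve neither small differences nor absence.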
